A study of Mus musculus with 8 samples.

Results

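The genes described here encode 8 transcription regulators tied to genome activation in the mouse embryo, namely Nr5a2, Klf5, Klf17, Tfap2c, Sp1, Nfya, Rarg and Yap1, and they were taken by gene symbol. Of the 8 genes, 7 had a row among the 13101 genes of the expression table, and all 7 passed the filter on low values; Nfya was not analysed here. RNA was measured in 8 pools of mouse embryos at the 2-cell stage, 4 pools of the Dux knockout (Dux KO) and 4 of wild type (WT). Both groups were on the C57BL/6 background and came from timed matings, with 12 to 18 embryos in a pool, and the labels name no other allele or agent for either. Polyadenylated RNA was made into cDNA with a low-input amplification kit. Levels are in FPKM, which are fragments scaled to transcript length and to a factor for each library. As inferred from the values, that factor did not follow the library's total of gene reads. Separate parents for the pools are not stated in the labels, so p-values measure only the spread between these pools. Because whole embryos were pooled, a lower share of cells with a transcript and less transcript in each cell cannot be told apart.

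In the early embryo the genome starts silent, on RNA and protein stored in the egg, and is switched on in waves around the 2-cell stage in the mouse. Dux encodes a double homeobox factor that activates a set of genes and endogenous retroviruses of that stage, and the factors described here bind promoters and enhancers opened in the same period or somewhat later. NR5A2 is an orphan nuclear receptor, KLF5, KLF17 and SP1 are zinc finger proteins that bind GC-rich and CACCC sequences, TFAP2C is the gamma form of the AP-2 family, and RARG is a retinoic acid receptor. NFYA is the subunit that gives the NF-Y complex its contact with the CCAAT box, and YAP1 is a coactivator that binds DNA through TEAD factors and is held in check by the kinases of the Hippo pathway.

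Of the 7 genes, 4 were lower in Dux KO than in WT pools, 0 were higher and 3 did not pass the test (limma on log2(FPKM + 1), Benjamini-Hochberg adjusted p under 0.05 over 12434 genes). The 4 that fell were Tfap2c, Sp1, Klf17 and Rarg, which averaged 59.0, 60.6, 67.6 and 63.4% of their WT means in Dux KO pools. Over all genes tested, 18.1% were called lower and 15.5% higher. With a filter of at least 5 FPKM on the mean, which 6 of the 7 genes passed, 29.1% of 6468 genes were called lower and 16.0% higher, and 3 of the 6 genes were lower. At an unadjusted p under 0.05 limma put 1 of the 7 genes higher, which was Yap1, and edgeR and DESeq2 on recovered reads each called that gene higher as well. The median difference of the 7 genes was -0.48 on the log2(FPKM + 1) scale, beside -0.02 over all genes tested. For the 6 genes of at least 5 FPKM it was -0.33, beside -0.18 over all genes at that level. The same 4 genes had every Dux KO pool under every WT pool, which held for 18.1% of all genes, and 0 of 7 had every Dux KO pool over every WT pool, which held for 15.0%.

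These counts depend on how the libraries are scaled. The FPKM of all genes summed to 377779 to 425287 in Dux KO pools and to 434070 to 488076 in WT pools, so that every Dux KO total lay under every WT total. When the pools were set to equal FPKM totals, an alternative chosen after seeing the data, the median difference over all genes moved to 0.12, with 2885 genes called higher and 1178 lower, against 1933 higher and 2249 lower as deposited. Under that scaling 1 of the 7 genes was called lower, Sp1 (-0.47 on the log2 scale, adjusted p = 0.0322), and 1 was called higher, Yap1 (0.62, adjusted p = 0.0159). Of the 7 genes, 2 were called lower without Dux KO replicate 3, without WT replicate 3 or without WT replicate 4. Without Dux KO replicate 1 the counts over all genes were 1262 higher and 1420 lower, and without WT replicate 4 they were 1176 and 1346. Dux KO replicate 2 lay farthest out on the first principal component, at 57.4 against 17.8 to 31.4 in the other Dux KO pools and -44.7 to -22.7 in WT pools. With Dux KO replicates 1 and 2 both left out, 352 genes were called higher and 443 lower, and 0 of the 7 genes were called lower. Dux was not analysed here, so the genotype labels were not checked by its level. Of 16 markers of the 2-cell stage, 11 were measured, with summed levels of 218 to 348 FPKM in Dux KO pools and 185 to 335 FPKM in WT pools. Oocyte markers, all 10 measured, summed to 5158 to 8514 FPKM in Dux KO pools and 6285 to 7462 FPKM in WT pools. Of 12 cumulus and granulosa cell markers, 4 were measured (5.68 to 21.0 FPKM in Dux KO pools and 1.45 to 10.3 FPKM in WT pools), and of 6 oviduct markers 1 was, Ovgp1 (3.07 to 22.0 FPKM in Dux KO pools and 1.74 to 11.5 FPKM in WT pools). None of the 9 blood or 7 sperm markers had a row. The part of other cells in the results was not tested.

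**Figure D1:**
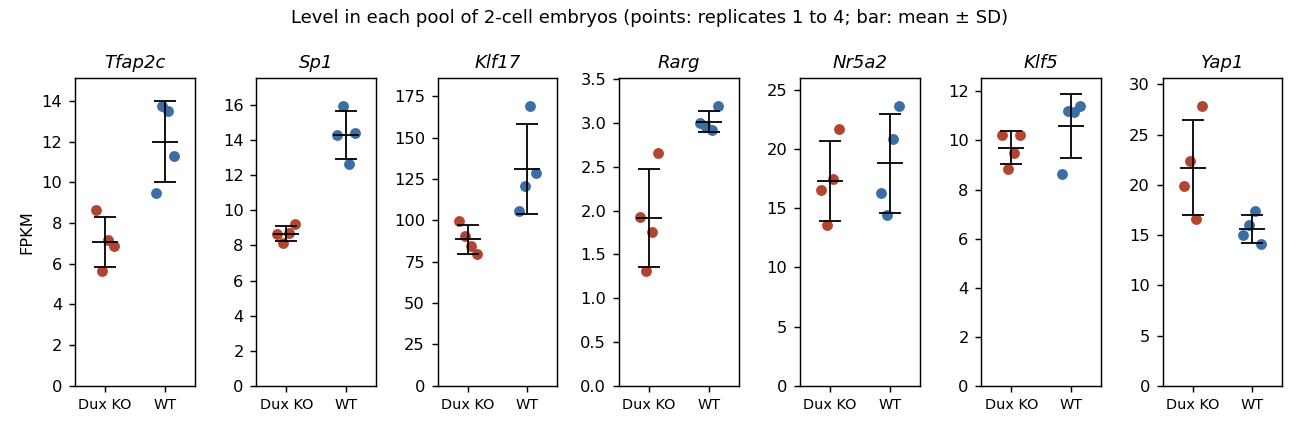
Level of each gene (y axis, FPKM) in the 4 Dux KO pools and, to their right, the 4 WT pools; points are replicates 1 to 4 from left to right, and bars are the mean and SD. Tfap2c, Sp1, Klf17 and Rarg have all Dux KO points under all WT points, while Nr5a2, Klf5 and Yap1 overlap, with Yap1 at 16.6 to 27.8 FPKM in Dux KO pools and 14.1 to 17.4 FPKM in WT pools.

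The promoters of Klf17 and Sp1, which fell, and of Yap1, which did not, are shown because each has a single start site in the RefSeq table and because their letters include sites of the kind these factors bind. Each window runs from 250 bases before the start site to 50 after it on the gene's own strand, in RefSeq's GRCm38.p6, at chr4:117765617-117765916 on the minus strand for Klf17, chr15:102406066-102406365 on the plus strand for Sp1 and chr9:8004547-8004846 on the minus strand for Yap1. Capitals mark matches, on either strand, to CCAAT (the NF-Y site), GGGCGG and CCACCC (SP and KLF sites), GCCNNNGGC (AP-2), TCAAGGNCA (NR5A), GGAATG (TEAD) and AGGTCA (a retinoic acid receptor half-site).
Klf17: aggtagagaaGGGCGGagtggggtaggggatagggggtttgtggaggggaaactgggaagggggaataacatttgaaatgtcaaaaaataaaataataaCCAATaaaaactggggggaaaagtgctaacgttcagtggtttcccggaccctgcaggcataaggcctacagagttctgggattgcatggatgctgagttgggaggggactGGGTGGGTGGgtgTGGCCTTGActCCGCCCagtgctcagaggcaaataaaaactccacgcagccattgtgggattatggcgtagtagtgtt
Sp1: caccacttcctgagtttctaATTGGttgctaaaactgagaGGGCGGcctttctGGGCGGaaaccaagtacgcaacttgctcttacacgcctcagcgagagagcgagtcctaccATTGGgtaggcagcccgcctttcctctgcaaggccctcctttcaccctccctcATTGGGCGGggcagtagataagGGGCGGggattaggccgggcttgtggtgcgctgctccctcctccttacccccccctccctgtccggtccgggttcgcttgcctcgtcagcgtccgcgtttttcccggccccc
Yap1: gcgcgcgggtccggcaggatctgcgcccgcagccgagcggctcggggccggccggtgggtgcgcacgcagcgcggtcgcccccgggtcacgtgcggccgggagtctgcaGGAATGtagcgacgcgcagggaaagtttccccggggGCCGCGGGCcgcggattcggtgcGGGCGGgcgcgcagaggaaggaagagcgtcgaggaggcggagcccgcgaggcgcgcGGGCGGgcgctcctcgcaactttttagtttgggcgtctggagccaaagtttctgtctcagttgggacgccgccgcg
In the Klf17 window the NR5A letters start at position -28 from the start site, on the opposite strand, next to a pair of overlapping CCACCC matches at -41 and -37 on that strand. That window also held GGGCGG at -240 and, on the opposite strand, at -17, and CCAAT at -151. The Sp1 window held GGGCGG at -210, -197, -81 and -62. It held CCAAT on the opposite strand at -230, -137 and -84, the last sharing bases with the GGGCGG match at -81. The RefSeq start site of Sp1 lies 173 bases inside the gene as GENCODE gives it, so the matches at -137, -84, -81 and -62 fall within that gene's bounds. The RefSeq start of Klf17 lies 18 bases before the GENCODE gene, and that of Yap1 is the GENCODE start. The Yap1 window held GGAATG at -141, GCCNNNGGC at -105 and GGGCGG at -82 and -26. Among all 32851 windows of the table, 37.4% held CCAAT, 35.7% GGGCGG, 31.5% CCACCC, 16.6% GCCNNNGGC, 1.62% TCAAGGNCA, 14.7% GGAATG and 16.3% AGGTCA, and the ends of TCAAGGNCA and AGGTCA can share letters. The match to TCAAGGNCA in Klf17 is thus the least common of those found, and every match is a description of letters and not a measured binding site. Of the 8 genes, 6 had a window in the table. The shares count windows with at least 1 match and were not matched for base content. G and C made up 50.7% of the Klf17 window, 61.7% of the Sp1 window and 74% of the Yap1 window, beside a median of 52.7% over all windows.

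Among the 4 genes that fell, Sp1 had the narrowest spread in Dux KO pools. Sp1 encodes a widely used activator of promoters with GC boxes; the gene lies at chr15:102406143-102436404 on the plus strand (ENSMUSG00000001280, GRCm38). It had 8.63, 8.13, 8.72 and 9.20 FPKM in Dux KO replicates 1 to 4, and 14.3, 15.9, 12.6 and 14.4 FPKM in WT replicates 1 to 4. The Dux KO pools lay close together and all of them were clear of the lowest WT pool, replicate 3. Dux KO pools averaged 8.67 ± 0.439 FPKM and WT pools 14.3 ± 1.35 FPKM (SD, n = 4 each). The difference was -0.66 on the log2 scale (SE 0.14, 95% interval -0.97 to -0.35, limma adjusted p = 0.00736), and 12.3% of tested genes had a lower one. The 8 values rest on 1035 to 1828 recovered reads, and the call held without any single pool (adjusted p 0.0108 to 0.0237). It was lost without Dux KO replicates 1 and 2 together (-0.62, adjusted p = 0.0654).

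Tfap2c, at chr2:172549593-172558622 on the plus strand (ENSMUSG00000028640), encodes the AP-2 factor that later acts in trophectoderm and in primordial germ cells. It had 8.65, 5.64, 7.15 and 6.87 FPKM in Dux KO replicates 1 to 4, against 9.49, 13.7, 13.5 and 11.3 FPKM in WT replicates 1 to 4. The groups did not overlap, but Dux KO replicate 1 and WT replicate 1 came near to each other. The means were 7.08 ± 1.24 FPKM in Dux KO pools and 12.0 ± 2.00 FPKM in WT pools (SD, n = 4 each). Tfap2c had the lowest difference of the 7 genes, -0.69 (SE 0.18, 95% interval -1.07 to -0.30, limma adjusted p = 0.0144), with 11.1% of tested genes lower still. The gene held 326 to 702 reads a pool, and no single pool ended the call (adjusted p 0.0155 to 0.0363). Equal FPKM totals gave -0.50 (adjusted p = 0.0523), and leaving out Dux KO replicates 1 and 2 gave -0.69 (adjusted p = 0.0681), so that neither passed the threshold.

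Klf17 was the most abundant of the 7 genes in both groups. It encodes a Krüppel-like factor of the oocyte and early embryo, at chr4:117757836-117765648 on the minus strand (ENSMUSG00000048626). Its levels were 99.8, 90.7, 84.4 and 79.6 FPKM in Dux KO replicates 1 to 4 and 106, 121, 169 and 129 FPKM in WT replicates 1 to 4. The groups were separated by the small gap between Dux KO replicate 1 and WT replicate 1, and WT replicate 3 was the highest pool. Dux KO pools averaged 88.6 ± 8.73 FPKM and WT pools 131 ± 27.0 FPKM (SD, n = 4 each), which put the gene above 95.4% of tested genes in Dux KO pools and above 96.5% in WT pools. The difference was -0.54 (SE 0.17, 95% interval -0.91 to -0.18, limma adjusted p = 0.0285), on 2661 to 4884 reads. Its call was lost without Dux KO replicate 3 (adjusted p = 0.0582), Dux KO replicate 4 (0.0592), WT replicate 3 (0.0700) or WT replicate 4 (0.0643). Quantile normalization brought the difference to -0.28 (adjusted p = 0.187) and equal FPKM totals to -0.34 (adjusted p = 0.124), while the call held with median-of-ratios scaling (-0.52, adjusted p = 0.0315), edgeR (-0.52, adjusted p = 0.0221) and DESeq2 (-0.52, adjusted p = 0.0114).

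Rarg, which encodes the gamma form of the retinoic acid receptor, had the lowest level of the 7 genes. It lies at chr15:102234938-102257517 on the minus strand (ENSMUSG00000001288). Its levels were 1.92, 1.31, 1.76 and 2.66 FPKM in Dux KO replicates 1 to 4 and 3.00, 2.96, 2.92 and 3.19 FPKM in WT replicates 1 to 4. The WT pools were nearly level, while Dux KO replicate 4 reached close to them and Dux KO replicate 2 was the lowest. The means were 1.91 ± 0.561 FPKM in Dux KO pools and 3.02 ± 0.120 FPKM in WT pools (SD, n = 4 each). The difference was -0.48 (SE 0.17, 95% interval -0.85 to -0.12, limma adjusted p = 0.0434), a scale that understates the change of a gene this low. Its fewest reads were 88 in Dux KO and 150 in WT pools, where counting alone gives a coefficient of variation of 10.7 and 8.16%. The measured spread was 29.3% in Dux KO pools and 3.97% in WT pools, the second below what counting alone gives. The call held only without Dux KO replicate 4 (adjusted p = 0.0189); without Dux KO replicate 1, 2 or 3 adjusted p was 0.0869, 0.113 or 0.0844, and without WT replicate 1, 2, 3 or 4 it was 0.0778, 0.0692, 0.0676 or 0.0947. It was also not called by edgeR on recovered reads (adjusted p = 0.0673) or at equal FPKM totals (-0.34, adjusted p = 0.123).

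Nr5a2 and Klf5 were near their WT levels. Nr5a2, at chr1:136842571-136960448 on the minus strand (ENSMUSG00000026398), had 16.5, 13.6, 17.4 and 21.7 FPKM in Dux KO replicates 1 to 4 and 16.2, 14.5, 20.9 and 23.6 FPKM in WT replicates 1 to 4. Both groups spanned almost the same range, with replicate 2 lowest and replicate 4 highest in each, and the labels give no pairing of the pools. The mean was 17.3 ± 3.36 FPKM in Dux KO pools and 18.8 ± 4.19 FPKM in WT pools (SD, n = 4 each). The difference was -0.11 (SE 0.19, 95% interval -0.53 to 0.32, limma adjusted p = 0.680), an interval that takes in the difference seen for Rarg on its lower side. It turned to 0.0059 without WT replicate 4, to 0.072 without Dux KO replicates 1 and 2 and to 0.085 at equal FPKM totals, so that no direction can be given.

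Klf5, at chr14:99298691-99315036 on the plus strand (ENSMUSG00000005148), encodes a Krüppel-like factor known for its part in forming the first lineages of the mouse blastocyst. It had 10.2, 8.83, 9.49 and 10.2 FPKM in Dux KO replicates 1 to 4 and 8.62, 11.2, 11.2 and 11.4 FPKM in WT replicates 1 to 4. WT replicate 1 was the lowest of all 8 pools, under every Dux KO pool, and the other WT pools were above them. The means were 9.70 ± 0.675 FPKM in Dux KO pools and 10.6 ± 1.32 FPKM in WT pools (SD, n = 4 each). The difference was -0.11 (SE 0.15, 95% interval -0.44 to 0.22, limma adjusted p = 0.578), and equal FPKM totals turned it to 0.074.

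Yap1 was the one gene of the 7 with a higher mean in Dux KO pools. It lies at chr9:7931999-8004596 on the minus strand (ENSMUSG00000053110). The levels were 19.9, 22.4, 16.6 and 27.8 FPKM in Dux KO replicates 1 to 4 and 15.0, 16.0, 17.4 and 14.1 FPKM in WT replicates 1 to 4. Dux KO replicates 1, 2 and 4 were above every WT pool, and replicate 3 lay under WT replicate 3. The means were 21.7 ± 4.72 FPKM in Dux KO pools and 15.6 ± 1.41 FPKM in WT pools (SD, n = 4 each). The difference of 0.43 (SE 0.17, 95% interval 0.05 to 0.80) missed the threshold in limma (adjusted p = 0.0720), and 20.8% of tested genes had a higher one. It passed without Dux KO replicate 3 (0.54, adjusted p = 0.0372), with quantile normalization (0.52, adjusted p = 0.0419), with edgeR (0.51, adjusted p = 0.0270) and with DESeq2 (0.51, adjusted p = 0.0166). The noncoding gene Gm20416 overlaps an exon of Yap1 on the other strand, and since no source used here gives the strand setting of the counting, reads of the pair cannot be told apart.

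**Figure D2:**
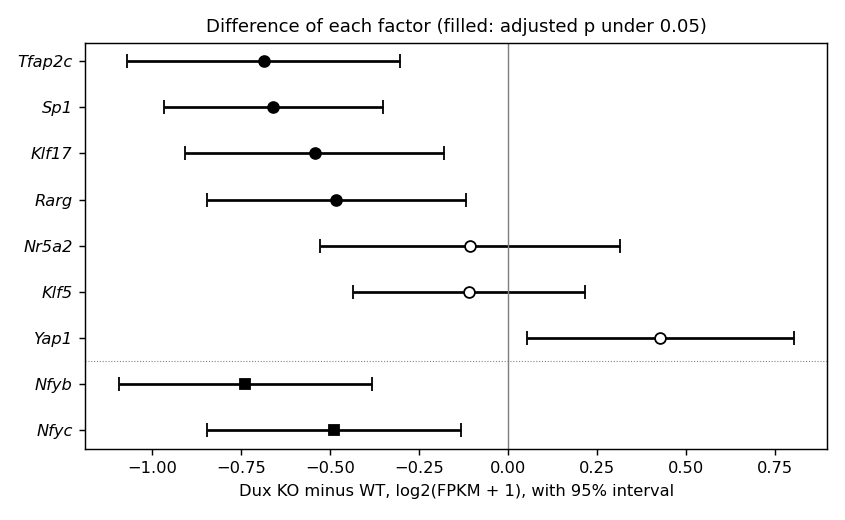
Difference of each gene, Dux KO minus WT (x axis, log2(FPKM + 1)), with its 95% interval; filled symbols passed adjusted p under 0.05, and Nfyb and Nfyc, the partner subunits of NF-Y, stand under the dotted line. The intervals of Tfap2c, Sp1, Klf17 and Rarg lie under 0, those of Nr5a2 and Klf5 span 0, and that of Yap1 (0.05 to 0.80) lies above 0 without passing the adjusted threshold.

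The order of the levels differed between the groups, and FPKM, being per length, allows the genes to be ranked within a group. In Dux KO pools it ran Klf17, Yap1, Nr5a2, Klf5, Sp1, Tfap2c, Rarg, and in WT pools Klf17, Nr5a2, Yap1, Sp1, Tfap2c, Klf5, Rarg. Klf17 and Rarg stood clear at the top and bottom in both. In Dux KO pools Nr5a2 and Klf5 were also separated, and the ranges of the other neighbours overlapped (Yap1 with Nr5a2, Klf5 with Sp1, Sp1 with Tfap2c). In WT pools every neighbouring pair between Nr5a2 and Klf5 overlapped. Spread within a group also differed between the genes: the coefficient of variation in Dux KO pools went up to 29.3% for Rarg and down to 5.06% for Sp1, and in WT pools up to 22.3% for Nr5a2 and down to 3.97% for Rarg, beside medians over all tested genes of 22.1% in Dux KO and 21.6% in WT pools.

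The ratio of 2 genes within a pool does not depend on how the libraries are scaled, so the 21 pairs of the 7 genes were also compared, a choice made after the levels were seen. For 11 pairs the log2 ratio did not overlap between the groups. Each had a two-sided exact permutation p = 0.0286, which is as small as this design can give. Adjusted over the 21 pairs these became 0.0545, so none passed. The pairs reuse the same 7 genes, and the share of such pairs among all genes was not computed, so the count of 11 has no baseline. Single genes did not overlap in 18.1% (lower in Dux KO) and 15.0% (higher) of all genes tested. The ratio of Klf17 to Yap1 was 2.05 ± 0.386 in Dux KO and 3.05 ± 0.218 in WT pools on the log2 scale. The ratios of Tfap2c, Sp1 and Rarg to Yap1 were lower in Dux KO by 1.21, 1.17 and 1.15. Klf5 had a log2 ratio to each of the 4 genes that fell that was higher in Dux KO, by 0.43 (Klf17), 0.64 (Tfap2c), 0.60 (Sp1) and 0.58 (Rarg). Those 4 genes were grouped by their fall in these same values, so their ratios to Klf5 and Yap1 are no further support for it. Among the 4 genes themselves, all 6 pairs overlapped, with differences of -0.06 to 0.22, which does not show that they moved by the same amount.

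**Figure D3:**
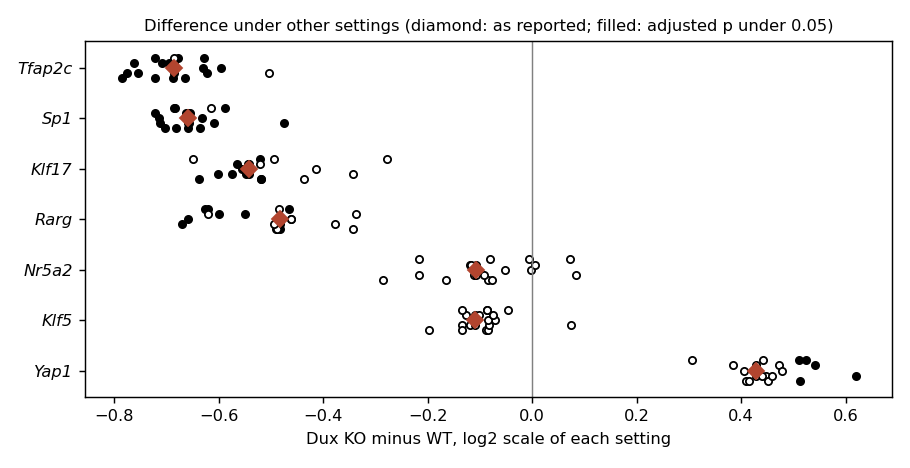
Difference of each gene, Dux KO minus WT (x axis, log2 scale of the setting), as reported (diamond) and under the other settings (circles, filled where adjusted p was under 0.05). Sp1 and Tfap2c stayed lower and mostly filled, Klf17 and Rarg stayed lower with many open circles, Nr5a2 and Klf5 lie about 0, and Yap1 stayed above 0 with some filled circles.

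Nfyb and Nfyc, which encode the partner subunits of NFYA in the NF-Y complex, were both lower in Dux KO pools. Nfyb had 46.0, 33.0, 50.4 and 43.9 FPKM in Dux KO replicates 1 to 4 and 83.6, 64.5, 69.4 and 72.0 FPKM in WT replicates 1 to 4. Every Dux KO pool was under every WT pool, for a difference of -0.74 (limma adjusted p = 0.00829) that held without any single pool. Nfyc had 19.3, 13.2, 16.6 and 16.3 FPKM in Dux KO replicates 1 to 4 and 22.3, 20.3, 28.3 and 22.3 FPKM in WT replicates 1 to 4. Its groups did not overlap either, but the difference of -0.49 (limma adjusted p = 0.0392) lost its call without Dux KO replicate 2 (0.0892), 3 (0.0637) or 4 (0.0603) and without WT replicate 1 (0.0661), 3 (0.0967) or 4 (0.0747). Within the list of 12 measured partners, paralogues and cofactors of NF-Y, AP-2 and NR5A factors, these 2 genes fell and 3 rose, with a median of 0.25, beside 18.1% lower and 15.5% higher over all genes, which is near the list's share of falls. The 3 were Tfap2e, an AP-2 paralogue (0.91, adjusted p = 0.0107), Cited2, a coactivator of AP-2 factors (0.79, adjusted p = 0.00617), and Ncoa2, a nuclear receptor coactivator (0.52, adjusted p = 0.0273). Tfap2e averaged 14.2 FPKM in Dux KO and 6.90 FPKM in WT pools, against 7.08 FPKM in Dux KO and 12.0 FPKM in WT pools for Tfap2c, so that the order of the 2 paralogues by mean was opposite in the groups. Ncoa2 lost its call without Dux KO replicate 1 (0.0554), Dux KO replicate 4 (0.0571) or WT replicate 4 (0.0789).

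Of 15 other KLF and SP genes measured, 3 rose, 2 fell and 10 were not called, with a median of 0.05. Over all genes 15.5% rose and 18.1% fell, and the list's counts are near those shares. Klf8 fell to 1.29 FPKM in Dux KO pools, against 4.21 FPKM in WT pools (-1.20, limma adjusted p = 0.00207), and Klf9 to 8.19 FPKM, against 15.0 FPKM in WT pools (-0.76, adjusted p = 0.0121). Sp9 averaged 2.01 FPKM in Dux KO and 0.383 FPKM in WT pools (1.12, adjusted p = 0.00207), and Klf7 averaged 4.39 FPKM in Dux KO and 2.10 FPKM in WT pools (0.80, adjusted p = 0.00501). Klf6 also rose (1.02, adjusted p = 0.0207), with 1.33, 4.49, 1.35 and 1.08 FPKM in Dux KO replicates 1 to 4 and 0.741, 0.0820, 0.681 and 0.156 FPKM in WT replicates 1 to 4, and lost its call without WT replicate 4 (0.0580). All 5 were well under the level of Klf17. Sp9 and Klf6, which averaged 0.383 and 0.415 FPKM in WT pools, passed the filter of 0.5 FPKM only through the Dux KO pools. Their place in the count of 3 is thus tied to that filter. With a mean of at least 5 FPKM, 0 genes of this list rose and 1 fell.

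Genes of the retinoic acid pathway, to which Rarg belongs as a receptor, were higher in Dux KO pools where they were called. Of 12 measured, 6 rose, 0 fell and 6 were not called, beside 15.5% higher and 18.1% lower over all genes. All 12 differences were above 0, and the median was 0.49. The count of 0 was the same with edgeR, with DESeq2 and at an unadjusted p under 0.05 in limma. Stra8, a gene named for its response to retinoic acid, had 6.46, 6.28, 10.6 and 11.0 FPKM in Dux KO replicates 1 to 4, against 0.361, 0.599, 1.57 and 0.885 FPKM in WT replicates 1 to 4 (2.37, limma adjusted p = 0.000802). No pool of either group came near the other. Rdh11 and Aldh1a2, which encode enzymes that act on retinal, differed by 1.02 (adjusted p = 0.00458) and 0.91 (adjusted p = 0.00501). Crabp2, which carries retinoic acid in the cell, averaged 25.2 FPKM in Dux KO and 12.1 FPKM in WT pools (0.97, adjusted p = 0.0158). Crabp1 (0.81) and Rdh10 (0.48) were the other 2 called, and are named here after their values were seen. Rarg, at -0.48, thus went the other way from the called genes of this list. Rara, which encodes the alpha receptor and is also named after its values were seen, was at 0.29 without passing the test. It averaged 0.384 FPKM in WT pools, and Aldh1a1, named likewise and not called, 0.358 FPKM. Both passed the filter of 0.5 FPKM only through the Dux KO pools, so their differences above 0 are tied to that filter. With a mean of at least 5 FPKM, 4 genes of this list rose and 0 fell.

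Of 21 tested genes of the Hippo pathway, which holds YAP1 in check, 2 rose, 3 fell and 16 were not called, with a median of 0.09. These counts are not above the shares over all genes, 15.5% higher and 18.1% lower. The kinase genes Stk3 and Stk4, which encode the MST kinases at the head of the pathway, went opposite ways: Stk3 averaged 11.1 FPKM in Dux KO and 6.78 FPKM in WT pools (0.63, limma adjusted p = 0.0202), and Stk4 averaged 10.6 FPKM in Dux KO and 17.8 FPKM in WT pools (-0.69, adjusted p = 0.0167). Wwtr1, which encodes TAZ, the paralogue of YAP1, had 11.9, 9.86, 12.1 and 8.68 FPKM in Dux KO replicates 1 to 4, against 13.3, 16.6, 19.5 and 15.7 FPKM in WT replicates 1 to 4 (-0.57, adjusted p = 0.0252). The groups did not overlap, whereas those of Yap1 did and lay the other way. The log2 ratio of Yap1 to Wwtr1, chosen after their values were seen, was 1.02 ± 0.534 in Dux KO and -0.05 ± 0.158 in WT pools (SD, n = 4 each). Its ranges did not overlap (two-sided exact permutation p = 0.0286, as small as this design can give). Since the pair was picked from its values, that p is only a description. Tead4, the TEAD factor known from trophectoderm, fell with overlapping groups (-0.69, adjusted p = 0.0389), and Wwc2, a scaffold of the kinases, rose (0.54, adjusted p = 0.0221).

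Most of these Hippo calls depended on single pools. Stk3 lost its call without Dux KO replicate 1 (0.0529) or WT replicate 4 (0.0588), and Wwc2 without Dux KO replicate 1 (0.0617), WT replicate 1 (0.0507) or WT replicate 4 (0.0549). Wwtr1 lost it without Dux KO replicate 2 (0.0520) or 4 (0.0543) or WT replicate 2 (0.0519), 3 (0.0626) or 4 (0.0544). Tead4 kept it only without Dux KO replicate 3 or WT replicate 1, with adjusted p of 0.0876, 0.0979 and 0.0675 without Dux KO replicate 1, 2 and 4 and of 0.0692, 0.0613 and 0.110 without WT replicate 2, 3 and 4. Stk4 kept its call without any single pool.

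Among 34 tested factors of the oocyte, the 2-cell embryo and general promoters, 12 fell, 3 rose and 19 were not called, with a median of -0.29. Over all genes 18.1% were lower and 15.5% higher, and among genes of at least 5 FPKM, a level that many of this list reach, 29.1% were lower. Prdm14, which encodes a transcription regulator that acts in germ cells and pluripotent cells, averaged 3.19 FPKM in Dux KO and 14.1 FPKM in WT pools (-1.91, limma adjusted p = 0.00428). Gabpa, the DNA-binding subunit of an ETS complex that acts at many promoters, had 103, 84.8, 112 and 96.1 FPKM in Dux KO replicates 1 to 4 and 172, 190, 236 and 176 FPKM in WT replicates 1 to 4 (-0.96, adjusted p = 0.00309). The Gabpa groups were well apart, at levels near those of Klf17. Obox3, an oocyte and embryo homeobox gene with close copies among which reads could be split, differed by -1.41 (adjusted p = 0.00516), and Dppa2, which acts upstream of Dux in embryonic stem cells, by -0.99 (adjusted p = 0.0169). Dppa2 lost its call without WT replicate 4 (0.0514). The 3 that rose were Usf2 (0.82), Lhx8 (0.80, lost without Dux KO replicate 1 at 0.0556) and Arid3a (0.40, lost without Dux KO replicate 1 or 2 at 0.0887 or 0.0563 and without WT replicate 1 or 4 at 0.0679 or 0.0966), of which Usf2 averaged 2.05 FPKM in Dux KO and 0.705 FPKM in WT pools. The 12 counted as lower were 5 without WT replicate 4 and 7 at equal FPKM totals, and the 3 higher were 1 without Dux KO replicate 1. Arid3a averaged 0.477 FPKM in WT pools and passed the filter of 0.5 FPKM only through the Dux KO pools.

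**Figure D4:**
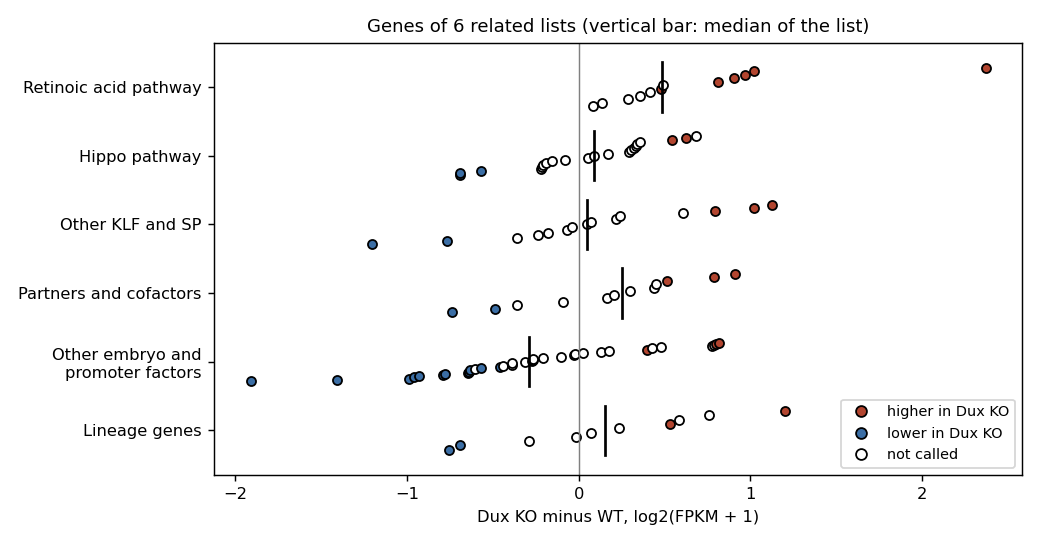
Difference of each measured gene, Dux KO minus WT (x axis, log2(FPKM + 1)), in the 6 related lists; red circles were called higher, blue circles lower and open circles not called, and the vertical bar is the list's median. The retinoic acid list lies above 0 with a median of 0.49, the list of other embryo and promoter factors has most of its called genes under 0, and the other 4 lists spread to both sides.

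Of 10 measured genes of the first lineages, 2 rose, 2 fell and 6 were not called, with a median of 0.15. Both counts are close to the shares over all genes, 15.5% higher and 18.1% lower. Id2, which marks trophectoderm precursors, averaged 58.9 FPKM in Dux KO and 26.0 FPKM in WT pools (1.20, limma adjusted p = 0.0113), and no single pool ended that call. Gata3, a trophectoderm factor (0.53, adjusted p = 0.0352), and Fgf4, a growth factor of the inner cell mass (-0.75, adjusted p = 0.0445), each lost the call in 6 of 8 leave-outs, to at most 0.0891 and 0.108; Gata3 kept it only without Dux KO replicate 4 or WT replicate 3, and Fgf4 only without Dux KO replicate 4 or WT replicate 3. Tead4, described above, was the other that fell.

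By the rule of the highest correlation over the 8 pools, the genes whose levels ran most like those of each factor were as follows, as a description in which the 2 groups of pools are shared by all points. Sp1 ran most like Ift20 (r = 0.988), Polq and Cox7a1, and Klf17 most like Pnldc1 (r = 0.975), Ubap1 and Ccna2. Tfap2c ran most like Lrrc59 (r = 0.966), Kif2c and Gde1, and Rarg most like Arl8b (r = 0.985), Sgpp1 and Cdk2ap1. The neighbours of these 4 genes were all lower on average in Dux KO pools, which follows from picking them by correlation with genes that fell. Ccna2, the cyclin A2 gene, was at 198 FPKM in Dux KO and 305 FPKM in WT pools. Yap1 ran most like Taok1 (r = 0.984), Crebbp (r = 0.981) and Akap12 (r = 0.980), of which Taok1, a kinase of the Hippo list, averaged 36.0 FPKM in Dux KO and 28.7 FPKM in WT pools. Nr5a2 ran most like Mrpl22 (r = 0.981), Lonp1 and Acsl4, and Klf5 most like Rfng (r = 0.975), Thoc3 and Fbxw11.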

How the data were processed

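RNA was measured in 4 Dux KO and 4 WT pools. Per the submitters' processing notes, the tools were Trimmomatic 0.32, STAR 2.6.1a and SAMtools 1.7, with the build GRCm38 (mm10). The read counter, annotation, strand setting and test were not given in the sources used here. The deposited table gives FPKM per gene and sample and, as the authors' own values, a mean count (a signal divided by size factors, inferred from the values), a log2 fold change and an adjusted p-value. The deposited table of repeats, a signal per name and sample, was used only to check the size factors. Whole reads were recovered for 100% of gene values within 0.05, giving 13010944 to 14548526 gene reads in Dux KO and 12343369 to 13814719 in WT pools. Reads of the pools within a group gave chi-square values of 13.8 to 117 per degree of freedom, so none was a repeated library.

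FPKM were tested as log2(FPKM + 1) with limma 3.58.1 in R 4.3.3 (trend and robust moderation, two-sided), for the 12434 genes whose mean reached 0.5 FPKM, with Benjamini-Hochberg adjustment. A difference on this scale understates the change of low genes. Intervals are 95%. Alternatives used edgeR 4.0.16 and DESeq2 1.42.0 on the recovered reads, a pseudocount of 0.1, no filter or one of 5 FPKM, other scalings, a replicate block, the deposited p-values and pools left out; equal FPKM totals were added after seeing the data.

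The genes described and the 6 lists (partners and paralogues, KLF and SP, retinoic acid, Hippo, other embryo and promoter factors, lineage genes) were chosen with earlier results of these data known. The text names the genes described and the called genes of each list with the largest difference, at most 4 in each direction. It also names, for each gene described, the 3 most correlated genes of at least 5 FPKM. Others are said to be named after their values or positions were seen. Positions of genes come from GENCODE M21 and promoters from RefSeq. Comparing all genes by promoter motif was void, since 73.3% of tested genes had a window.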

Additional observations from a re-analysis of the deposited data

Results flagged for a closer look

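In 5 of 72 groups of 4 pools (36 genes), 1 pool lay far from the other 3; chance flags about 1 in 20 groups. Klf5 was at 8.62 FPKM in WT replicate 1, against 11.2 to 11.4 FPKM in the other WT pools. Klf6 was at 4.49 FPKM in Dux KO replicate 2, against 1.08 to 1.35 FPKM in the other Dux KO pools, and Crabp2 at 40.2 FPKM in the same pool, against 18.6 to 21.3 FPKM. Dppa2 was at 24.8 FPKM in that pool as well, against 54.4 to 57.3 FPKM in the other Dux KO pools. Arid3a was at 1.13 FPKM in Dux KO replicate 1, against 0.849 to 0.890 FPKM in the other Dux KO pools.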

How the results depend on the processing

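Among the 7 genes, the 4 that fell kept their direction under every alternative run, and Nr5a2 and Klf5 did not. Differences below are on the log2 scale, and the cause of each change was not tested, beyond the fewer pools where pools were left out. Equal FPKM totals gave 0.085 for Nr5a2, 0.074 for Klf5, -0.34 for Klf17, -0.50 for Tfap2c, -0.34 for Rarg and 0.62 for Yap1. They left 1 of the 7 genes lower and 1 higher, 1178 genes lower over the whole table, and 5 partners, 5 Hippo genes and 5 other embryo factors higher, with 1 partner, 1 Hippo gene, 7 other embryo factors and 0 lineage genes lower. Without Dux KO replicates 1 and 2 the differences were 0.072 (Nr5a2), -0.65 (Klf17), -0.69 (Tfap2c), -0.62 (Sp1) and -0.34 (Rarg), with 0 of the 7 genes lower, and 352 genes higher and 443 lower in all. The lists then held, as higher and lower, 1 and 1 KLF and SP genes, 1 and 0 partners, 3 and 0 retinoic acid genes, 0 and 0 Hippo genes, 1 and 4 other embryo factors and 0 and 0 lineage genes. Without Dux KO replicates 3 and 4 Klf17 was at -0.44, with 1 KLF and SP gene and 1 partner lower and 4 lineage genes higher. Quantile normalization gave -0.28 for Klf17 and 0.52 for Yap1, with 1 of the 7 genes higher, 1 partner, 7 other embryo factors and 1 lineage gene lower and 1 lineage gene higher. EdgeR gave -0.62 for Rarg and 0.51 for Yap1, and DESeq2 0.51 for Yap1, each with 1 of the 7 genes higher. DESeq2 also called 5 other embryo factors and 4 lineage genes higher. A mean of at least 5 FPKM, which leaves out Rarg, gave 1032 genes, 0 KLF and SP genes, 1 other embryo factor and 1 lineage gene higher, and 1 KLF and SP gene lower. A pseudocount of 0.1, no filter, median-of-ratios scaling, plain moderation and the deposited p-values changed no call of the 7 genes.

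Leaving out each pool in turn gave -0.64 to -0.41 for Klf17, -0.60 to -0.38 for Rarg, -0.22 to 0.0059 (without WT replicate 4) for Nr5a2 and 0.31 to 0.54 for Yap1. The counts ran from 0 to 1 (higher) and from 2 to 3 (lower) for the 7 genes, from 1176 to 1917 and from 1346 to 2132 for all genes, from 0 to 3 and from 1 to 3 for Hippo genes, from 1 to 4 and from 5 to 12 for other embryo factors, and from 1 to 3 and from 0 to 1 for lineage genes. Lower partners ran from 1 to 2.

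Same-numbered Dux KO and WT pools had deviations correlated at -0.12, 0.33, -0.06 and 0.30 for replicates 1 to 4. Pools of different number ran from -0.40 to 0.27, under the values of replicates 2 and 4. The labels give no pairing, and so few values cannot decide whether same-numbered pools share a batch. With the replicate block, 4 of the 7 genes stayed lower, 2141 genes were higher and 2591 lower in all, and 7 other embryo factors were higher. Depth limits Rarg most, with at most 179 reads a pool, and 4 pools a group limit every test.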

Other observations

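Rarg and Sp1 lie 148625 bases apart on chromosome 15, and both fell. The 6 other tested genes between them, looked at after the positions were seen, held 2 that fell and 4 that were not called. Beside this, 18.1% of all genes tested and 29.1% of genes of at least 5 FPKM were called lower. Myg1 averaged 13.0 FPKM in Dux KO and 28.3 FPKM in WT pools (-1.11, limma adjusted p = 0.00458), and Pfdn5, a prefoldin subunit gene, averaged 135 FPKM in Dux KO and 194 FPKM in WT pools (-0.53, adjusted p = 0.0146). Mfsd5 (-0.74), Gm9918 (-0.35), Espl1, the separase gene (-0.29), and Aaas (-0.26) had negative differences without passing the test.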
